A study of Homo sapiens with 5 samples.

Results

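Solute carriers are the membrane proteins that move sugars, amino acids, metals, vitamins, nucleosides and ions across the cell surface and organelle membranes. The genes described here are those whose symbol has the form SLC, a family number, the letter A and a member number, without the mitochondrial SLC25 family, the anion exchanger SLC4A1 and 10 named amino acid transporters. Of 177 genes with such symbols, 126 remained, from 40 families, among 11976 genes measured in all. The symbol alone made a gene a member, and carriers with another letter, such as SLC35B1, or another name, such as FLVCR1, are therefore not members.

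Total RNA was sequenced from 3 samples labelled ERF knockout and 2 labelled wild type, all of the HUDEP-2 line. HUDEP-2, derived from umbilical cord blood, is an immortal line of erythroid progenitors that makes mainly adult hemoglobin. ERF is a repressor of the ETS family of transcription factors. The wild-type samples have titles with the letters SCR, and the deposited comparison has Pre in its name. The labels leave both unexplained. No label names the edit, the number of clones or the culture stage, so each group is known only by its genotype label. The labels do not say whether the samples of a group were separate cultures, so the spread behind the p-values may be partly technical. Below, knockout means the samples so labelled (n = 3) and wild type the others (n = 2).

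Carriers of the SLC2 family bring glucose into the cell, SLC16 carriers move lactate and related acids with protons, and SLC39 and SLC30 carriers bring zinc and other metals into the cytosol and out of it. In erythroid cells, iron taken up with transferrin leaves the endosome through SLC11A2, and iron leaves the cell through SLC40A1, and K-Cl cotransporters of the SLC12 family set red cell volume. Carriers of the SLC35 family load the Golgi with nucleotide sugars for glycosylation.

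The authors' deposited table gave, per gene, a log2 fold change between the groups, the mean log2 CPM (read counts scaled to library size) over all libraries, the quasi-likelihood F statistic, and p before and after Benjamini-Hochberg adjustment. It had no values per sample, so no level of a single library, no SD and no depth can be given. A gene was counted as higher or lower where its adjusted p was below 0.05. Its header does not name the direction of the fold change. The sign was set so that the γ-globin gene HBG2 is higher in the knockout, following the series title, and ERF RNA itself was then higher in the samples labelled knockout, since the authors' deposited table then gives it a log2 fold change of 0.89. With the opposite sign every "higher" below becomes "lower" and the reverse. All 8 erythroid markers examined had rows, at 7.07 to 12.48 mean log2 CPM in the authors' deposited table. Of these, HBA2, HBA1, HBB, ALAS2 and KLF1 were higher in the knockout, at log2 fold changes of 1.06, 0.75, 0.43, 0.22 and 0.17 in the authors' deposited table, while GATA1 and EPOR did not pass the threshold. The part of this marker shift in the carrier results was not tested, and in bulk RNA fewer cells of a kind and less RNA per cell cannot be told apart. Of 8 markers of other blood cells, PTPRC and ITGA2B had rows, at 5.95 and 7.26 mean log2 CPM in the authors' deposited table, neither past the threshold, and the other 6 were not analysed here.

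The comparison asks which carriers differ in RNA level between the cells labelled ERF knockout and the wild type. In the authors' deposited table, 25 of the 126 carriers were higher in the knockout (19.8%) and 41 were lower (32.5%), and 60 did not pass the threshold. Over all genes, 24.9% were higher and 25.9% lower, so that 50.9% passed, against 52.4% of the carriers. The median log2 fold change of the carriers was -0.07, beside 0.00 over all genes, in the authors' deposited table. Most changes were small: 62 of the 66 carriers that passed were under 2-fold in the authors' deposited table. Of the carriers that passed, 0 were higher and 7 lower with a log2 fold change of at least 0.8 in size, and over all genes 1.7% were higher and 3.92% lower by that measure.

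**Figure D1:**
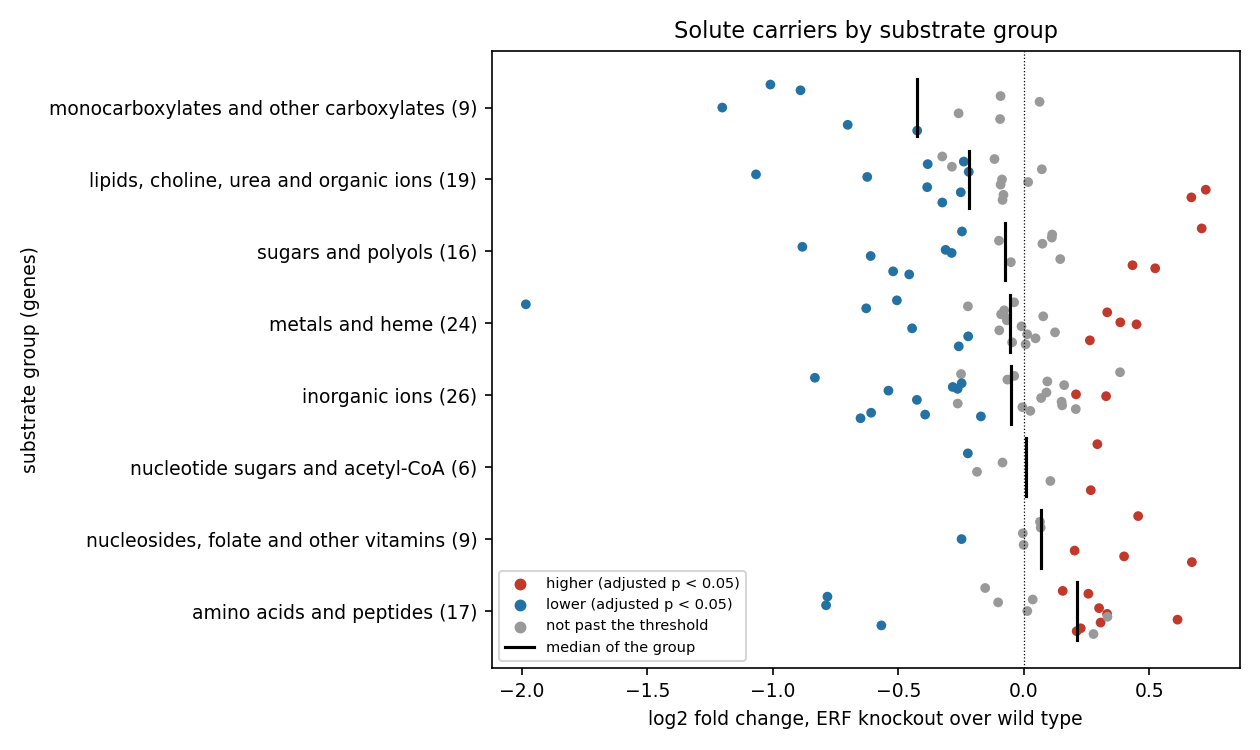
Log2 fold change (ERF knockout over wild type) of each of the 126 carriers, in 8 substrate groups with the number of genes in brackets; each point is a gene, red where higher, blue where lower and grey where the adjusted p was not below 0.05, and the black line is the group's median. Carboxylate carriers had the lowest median (-0.42) and carriers of amino acids and peptides the highest (0.21).

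The counts were also taken by level of the RNA. Among carriers below 2 mean log2 CPM, 2 of 21 were higher and 10 lower in the authors' deposited table, beside 293 higher and 539 lower of 2091 genes at that level. From 2 to 5 mean log2 CPM, 10 of 56 carriers were higher and 18 lower, beside 1037 higher and 1295 lower of 4671 genes in the authors' deposited table. At 5 or more, 13 of 49 carriers were higher and 13 lower in the authors' deposited table, and of 5214 genes at that level 1657 were higher and 1271 lower. The excess of lower over higher carriers thus lay below 5 mean log2 CPM, and its dependence on level was not tested. The carriers' median standard error was 0.16 log2 units below 2 mean log2 CPM and 0.06 at 5 or more. These standard errors were derived from the fold change and F of the authors' deposited table.

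**Figure D2:**
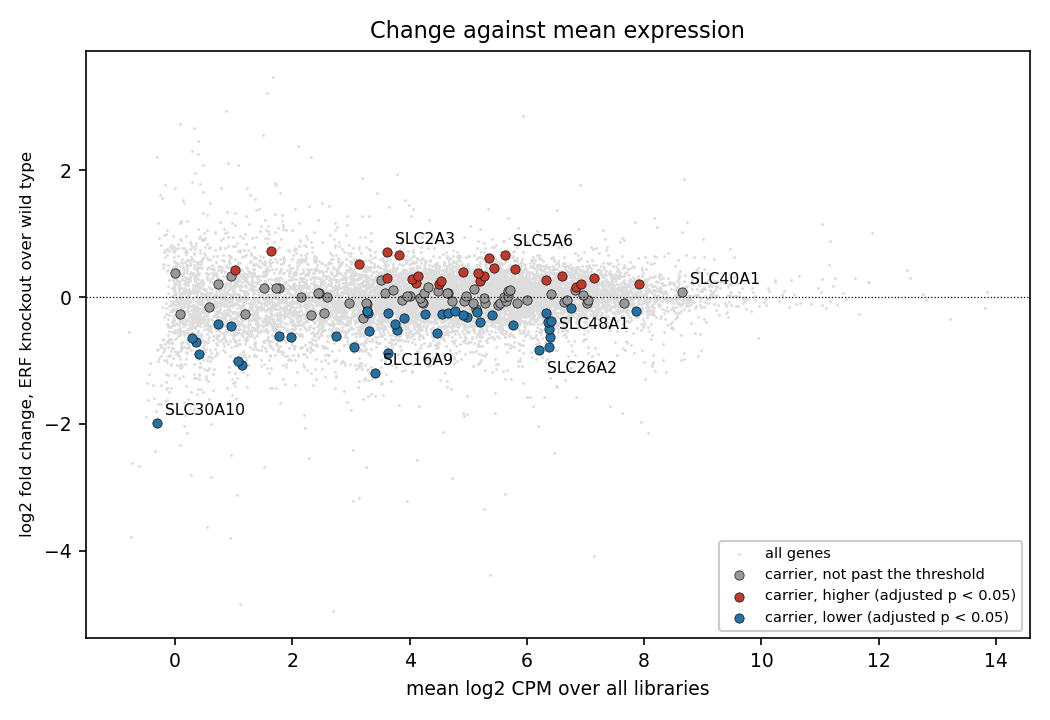
Log2 fold change (ERF knockout over wild type) against mean log2 CPM over all libraries, for all 11976 genes (small light points) and the 126 carriers (large points, coloured by direction where the adjusted p was below 0.05). SLC30A10 had the lowest mean level and the lowest fold change of the carriers (-1.98), and SLC40A1, with the highest mean log2 CPM (8.64), lay near 0.

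Carriers of metals and heme held the most abundant RNA and the most changed RNA of the carriers. Of 24 measured, 4 were higher (SLC39A7, SLC39A4, SLC39A6 and SLC39A1), 6 were lower and 14 did not pass the threshold in the authors' deposited table. These shares, 16.7% higher and 25% lower, lay beside 24.9% and 25.9% of all genes and were not compared by a test. The group's median was -0.06 in the authors' deposited table. SLC30A10, a manganese exporter of the cell surface, had a log2 fold change of -1.98 ± 0.24 (SE; 95% interval -2.51 to -1.46), which is 3.96-fold lower, by edgeR's test in the authors' deposited table (adjusted p = 8.69e-05). It had -0.32 mean log2 CPM in the authors' deposited table, the lowest mean level of the carriers. SLC48A1, which carries heme out of the endolysosome, was 1.54-fold lower at 6.40 mean log2 CPM (log2 fold change -0.63 ± 0.06 (SE), adjusted p = 1.25e-05) in the authors' deposited table. Between the pair, SLC30A10 had the larger fold and SLC48A1 the narrower interval.

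The erythroid iron carriers did not pass the threshold. SLC40A1, or ferroportin, the iron exporter, had a log2 fold change of 0.08 (95% interval -0.04 to 0.20; adjusted p = 0.26) in the authors' deposited table. SLC11A2, or DMT1, had 0.05 (interval -0.08 to 0.18; adjusted p = 0.53) in the authors' deposited table. The 14 carriers of the group that did not pass lay between -0.22, for SLC11A1, a related metal carrier of phagosomes, and 0.12, for SLC39A9, in the authors' deposited table. For both SLC40A1 and SLC11A2 the interval leaves room for changes of up to about 0.2 log2 units. Divided by exon length, SLC40A1 was the most abundant carrier, at 6.53 log2 CPM per kb, against 5.17 for SLC39A8.

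Zinc carriers moved in both directions. Of 11 measured SLC39 genes, which bring zinc into the cytosol, 4 were higher and 2 lower in the authors' deposited table. SLC39A7, which releases zinc from the endoplasmic reticulum, had a log2 fold change of 0.45 ± 0.07 (SE; adjusted p = 0.000656) in the authors' deposited table. The surface importers SLC39A4, SLC39A6 and SLC39A1 had 0.38, 0.33 and 0.26 in the authors' deposited table. In the other direction, SLC39A3 had -0.44 and SLC39A8, a carrier of zinc, manganese and iron, had -0.22 (adjusted p = 0.00413) in the authors' deposited table. The value of SLC39A1 is uncertain, because 55.2% of the 50-base stretches of its transcripts also occur in a transcript annotated to another gene. Of 6 measured SLC30 genes, which move zinc or manganese out of the cytosol, 0 were higher and 2 lower, SLC30A10 and SLC30A6, a Golgi zinc carrier at -0.51 in the authors' deposited table. SLC30A1, the zinc exporter of the cell surface, had -0.01 (interval -0.23 to 0.21; adjusted p = 0.947) in the authors' deposited table. The magnesium carrier SLC41A3 was lower at -0.26, and the copper importer SLC31A1 had -0.07 (adjusted p = 0.393), in the authors' deposited table.

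ERF binds DNA through an ETS domain, whose sites share a GGAA core, so the start regions of the carriers were searched for CCGGAAG on either strand. RefSeq windows of 300 bases on GRCh38.p14, 250 before to 50 after a start, were matched by symbol for 103 of the 126 carriers, in 159 windows, since a gene can have several starts. CCGGAAG occurred in 16 of these windows (10.1%), beside 10.3% of all windows of the table and 18.1% of the windows of measured genes. By direction, 3 of 30 windows of higher carriers (10%), 6 of 59 of lower carriers (10.2%) and 7 of 70 of the rest (10%) held it. These shares lay close together and were not compared by a test. TGATGNAA is the core of the element bound by ATF4 with C/EBP factors. It occurred in 5 windows of the carriers (3.14%), beside 3.62% of all windows and 1.85% of those of measured genes. Of the windows of lower carriers, 1 held it (1.69%). A match is a description of the sequence and not a site. Windows of other zinc carriers held CCGGAAG too: SLC39A1, which was higher, and SLC39A9 and SLC30A7, which did not pass the threshold. The windows of the pair of lower zinc carriers that held CCGGAAG are shown (for SLC39A8 the upstream one of the 2 that held it), with the match in capitals (CTTCCGG is the same motif on the other strand).
SLC39A8, chr4:102345204-102345503, minus strand: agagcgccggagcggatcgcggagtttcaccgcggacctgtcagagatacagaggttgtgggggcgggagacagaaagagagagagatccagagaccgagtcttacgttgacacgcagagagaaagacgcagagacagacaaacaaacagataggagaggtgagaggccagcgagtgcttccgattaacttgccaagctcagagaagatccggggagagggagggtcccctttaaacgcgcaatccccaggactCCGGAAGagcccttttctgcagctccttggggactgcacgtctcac
SLC30A6, chr2:32165614-32165913, plus strand: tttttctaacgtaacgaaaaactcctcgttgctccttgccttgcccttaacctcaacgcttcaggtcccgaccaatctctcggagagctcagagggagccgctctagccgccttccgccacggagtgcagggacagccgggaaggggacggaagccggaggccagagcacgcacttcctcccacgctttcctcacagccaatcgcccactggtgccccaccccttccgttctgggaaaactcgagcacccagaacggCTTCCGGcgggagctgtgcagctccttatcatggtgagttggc

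The match starts 5 bases after the RefSeq start in the window of SLC39A8 and 8 bases after it in that of SLC30A6.

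Among carriers of nucleotide sugars and acetyl-CoA, 2 of 6 were higher and 1 lower in the authors' deposited table. These shares, 33.3% and 16.7%, lay beside 24.9% and 25.9% of all genes and were not compared by a test. The group's median was 0.01 in the authors' deposited table, and -0.02 after centring on genes of at least 5 mean log2 CPM. SLC35A2, which brings UDP-galactose into the Golgi, had a log2 fold change of 0.29 ± 0.07 (SE; adjusted p = 0.00633) in the authors' deposited table. SLC35A4, of the same family, had 0.27 (adjusted p = 0.00186) and SLC35A5 had -0.22 (adjusted p = 0.0119) in the authors' deposited table. SLC35A3, for UDP-N-acetylglucosamine, had -0.19, SLC33A1, for acetyl-CoA, 0.11 and SLC35A1, for CMP-sialic acid, -0.08 in the authors' deposited table, none past the threshold. Of the 50-base stretches of SLC35A1 and SLC33A1, 47.4% and 21.6% also occur in other annotated genes, which makes these values uncertain. SLC35A4 and SLC35A5 moved in opposite directions, and the windows of both held CCGGAAG, which occurred 3 times in that of SLC35A5, at one place with overlap on both strands.
SLC35A4, chr5:140564578-140564877, plus strand: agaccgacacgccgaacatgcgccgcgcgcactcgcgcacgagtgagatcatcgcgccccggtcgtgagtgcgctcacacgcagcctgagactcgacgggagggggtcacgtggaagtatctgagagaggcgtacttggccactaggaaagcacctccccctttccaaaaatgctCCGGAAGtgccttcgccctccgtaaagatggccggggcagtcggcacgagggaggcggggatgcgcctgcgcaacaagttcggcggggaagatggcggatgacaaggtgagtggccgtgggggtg
SLC35A5, chr3:112561795-112562094, plus strand: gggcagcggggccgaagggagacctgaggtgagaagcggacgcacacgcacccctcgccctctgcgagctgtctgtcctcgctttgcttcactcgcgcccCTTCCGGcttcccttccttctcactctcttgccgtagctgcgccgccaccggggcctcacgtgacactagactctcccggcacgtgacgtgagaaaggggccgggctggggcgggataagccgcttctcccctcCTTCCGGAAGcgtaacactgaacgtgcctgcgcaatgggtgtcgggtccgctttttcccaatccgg

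Carriers of sugars were mostly lower or not past the threshold. Of 16 measured, 3 were higher, 7 lower and 6 neither, with a median of -0.07 in the authors' deposited table. That is 18.8% higher and 43.8% lower, beside 24.9% and 25.9% of all genes, not compared by a test. Within the glucose transporter family SLC2, 2 of 9 were higher and 5 lower in the authors' deposited table. SLC2A1, or GLUT1, the main glucose carrier of red cells, had a log2 fold change of 0.11 (95% interval 0.01 to 0.22; adjusted p = 0.0703) in the authors' deposited table, short of the threshold. Per length it was the most abundant of the family, at 4.58 log2 CPM per kb, against 0.99 for SLC2A3 and 1.15 for SLC2A14.

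SLC2A3, or GLUT3, a high-affinity glucose carrier, was 1.64-fold higher, at 0.71 ± 0.10 (SE) in the authors' deposited table (adjusted p = 0.000258). SLC2A14, its neighbour and close copy on chromosome 12, was 1.84-fold lower, at -0.88 ± 0.09 (SE) in the authors' deposited table (adjusted p = 4.37e-05). The pair thus moved in opposite directions, and the intervals, 0.49 to 0.93 for SLC2A3 and -1.09 to -0.67 for SLC2A14, did not overlap. Of the 50-base stretches of SLC2A14 transcripts, 16% occur in SLC2A3, so the split of reads between them is uncertain. SLC2A4, or GLUT4, the insulin-responsive carrier, had -0.52 (adjusted p = 0.00016) in the authors' deposited table. Lower too were SLC2A11 at -0.61, SLC2A12 at -0.46 and the inositol carrier SLC2A13 at -0.29, whereas the lysosomal SLC2A6 was higher at 0.52, in the authors' deposited table. SLC37A4, which brings glucose 6-phosphate into the endoplasmic reticulum, was lower at -0.31 (adjusted p = 0.00101), and SLC50A1 at -0.25, in the authors' deposited table. SLC45A3, a carrier first known from prostate, was higher at 0.43 (adjusted p = 0.0297) in the authors' deposited table. Levels were low for SLC45A3, SLC2A12 and SLC2A11, at 1.02, 0.95 and 1.77 mean log2 CPM in the authors' deposited table. The 6 that did not pass lay between -0.10 for SLC45A4 and 0.15 for SLC2A8 in the authors' deposited table.

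The carboxylate group had no higher member. Of 9 measured, 5 were lower and 4 did not pass the threshold, with a median of -0.42 in the authors' deposited table. That is 55.6% lower in a small group, beside 25.9% of all genes, and the shares were not compared by a test. SLC16A9, or MCT9, a carrier of the monocarboxylate family linked to carnitine export, was 2.30-fold lower, at -1.20 ± 0.09 (SE) in the authors' deposited table (adjusted p = 5.29e-06). SLC13A4, which shares a family with citrate carriers but carries sulfate, was 2.01-fold lower, at -1.01 ± 0.14 (SE) in the authors' deposited table (adjusted p = 0.00024). SLC16A5, or MCT6, had -0.89, SLC16A4, or MCT5, -0.70 and SLC16A6, or MCT7, -0.42 in the authors' deposited table. Those 3 lay between 0.35 and 0.73 mean log2 CPM in the authors' deposited table, which is low. SLC13A4 was low too, at 1.07, while SLC16A9 had 3.41. The group's median level, 1.19 mean log2 CPM, was the lowest of the 8 substrate groups.

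The lactate carriers themselves did not pass the threshold. SLC16A1, or MCT1, the lactate carrier of red cells and one of the most abundant carriers per length (5.25 log2 CPM per kb), had a log2 fold change of -0.09 (interval -0.19 to 0.01; adjusted p = 0.108) in the authors' deposited table. After centring on genes of at least 5 mean log2 CPM it passed, at -0.13 (adjusted p = 0.0365). SLC16A7, or MCT2, had -0.09 and SLC16A3, or MCT4, the lactate exporter of glycolytic cells, 0.06 in the authors' deposited table. BSG, the partner that MCT1 and MCT4 need at the membrane, had 0.08 (adjusted p = 0.26) in the authors' deposited table.

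Amino acid and peptide carriers other than the 10 set aside leaned higher, though the changes were small. Among the 17 with a row, 8 were higher, 3 lower and 6 neither, and the median was 0.21 in the authors' deposited table. That is 47.1% higher and 17.6% lower, beside 24.9% and 25.9% of all genes, not compared by a test. SLC6A6, the taurine carrier, was 1.53-fold higher, at 0.61 ± 0.06 (SE) in the authors' deposited table (adjusted p = 3.52e-05). SLC6A19, a carrier of neutral amino acids known from gut and kidney, had 0.33, SLC38A5, a glutamine carrier, 0.30 and SLC6A8, the creatine carrier, 0.21 in the authors' deposited table. The lysosomal carriers SLC36A1 and SLC38A7 had 0.16 and 0.23 in the authors' deposited table. SLC36A4 and SLC43A2, or LAT4, were the other higher members, at 0.31 and 0.26 in the authors' deposited table. The 6 that did not pass lay between -0.15 for the peptide carrier SLC15A2 and 0.33 for the betaine carrier SLC6A12 in the authors' deposited table.

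The 3 lower amino acid carriers changed by more than most of the higher ones. SLC43A1, or LAT3, a carrier of leucine and other large neutral amino acids, was 1.72-fold lower at 6.38 mean log2 CPM, with a log2 fold change of -0.78 ± 0.05 (SE) in the authors' deposited table (adjusted p = 2.39e-06). SLC7A8, or LAT2, which works with the heavy chain SLC3A2, was 1.73-fold lower, at -0.79 ± 0.10 (SE) in the authors' deposited table (adjusted p = 0.000147). SLC38A9, the lysosomal arginine sensor that signals to mTORC1, had -0.57 (adjusted p = 0.000184) in the authors' deposited table. The 10 amino acid transporters set aside had a median of -1.09, with 1 higher and 9 lower, in the authors' deposited table. The 40 measured mitochondrial SLC25 carriers had a median of -0.04, with 11 higher (27.5%) and 12 lower (30%), in the authors' deposited table. Among all genes 24.9% were higher and 25.9% lower. Differences between these lists were not tested.

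**Figure D3:**
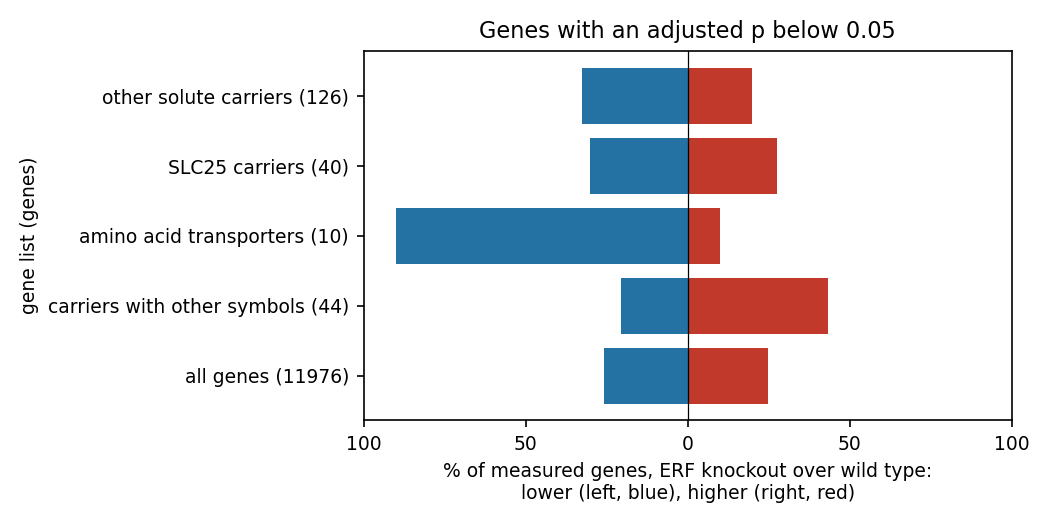
Percent of measured genes with an adjusted p below 0.05 that were lower (left, blue) or higher (right, red) in ERF knockout over wild type, for 5 gene lists with the number of measured genes in brackets. The 126 carriers had 32.5% lower and 19.8% higher, beside 25.9% and 24.9% of all genes.

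Vitamin and nucleoside carriers included the higher carrier with the smallest adjusted p. Of 9 measured, 4 were higher, 1 lower and 4 neither in the authors' deposited table. That is 44.4% higher and 11.1% lower, beside 24.9% and 25.9% of all genes, not compared by a test. SLC5A6, which brings biotin and pantothenate into the cell, was 1.59-fold higher, at 0.67 ± 0.05 (SE) in the authors' deposited table (adjusted p = 3.12e-06). SLC19A1, the reduced folate carrier, was 1.37-fold higher, at 0.46 ± 0.06 (SE) in the authors' deposited table (adjusted p = 0.000123). SLC52A2, a riboflavin carrier, had 0.40, and SLC29A1, the equilibrative nucleoside carrier ENT1 and the second most abundant per length at 5.77 log2 CPM per kb, had 0.20 (adjusted p = 0.00706), in the authors' deposited table. The lower member was the thiamine carrier SLC19A2, at -0.25 (adjusted p = 0.017) in the authors' deposited table. The nucleoside carriers SLC29A2 and SLC29A3 had 0.06 and 0.00, and the ascorbate carrier SLC23A2 0.07, in the authors' deposited table.

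Ion carriers were more often lower than higher. Of 26 measured, 2 were higher, 10 lower and 14 neither, with a median of -0.05 in the authors' deposited table. That is 7.69% higher and 38.5% lower, beside 24.9% and 25.9% of all genes. In total 46.2% passed, beside 50.9% of all genes. The shares of the substrate groups and of all genes were not compared by a test. The K-Cl cotransporters described here were lower, each by under 2-fold. SLC12A4, or KCC1, had -0.28 (adjusted p = 0.0114) and SLC12A7, or KCC4, had -0.25 (adjusted p = 0.00151) in the authors' deposited table. SLC12A2, or NKCC1, which loads chloride with sodium and potassium, had 0.16 (interval -0.0015 to 0.32; adjusted p = 0.0902) in the authors' deposited table.

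Among sulfate carriers, SLC26A2, at 6.20 mean log2 CPM, was 1.78-fold lower, at -0.83 ± 0.08 (SE) in the authors' deposited table (adjusted p = 2.90e-05). SLC26A1, which carries sulfate and oxalate, had -0.61 in the authors' deposited table, so that with SLC13A4 all 3 of these were lower, and the anion exchanger SLC26A6 had 0.03 (adjusted p = 0.808). Of the sodium-proton exchangers, SLC9A2 and the Golgi exchanger SLC9A8 were lower at -0.43 and -0.26, in the authors' deposited table. Phosphate carriers parted, with SLC20A1, or PiT1, at -0.17 (adjusted p = 0.00744) and SLC20A2, or PiT2, at 0.21 (adjusted p = 0.018) in the authors' deposited table. The calcium exchangers SLC24A1 and SLC24A5 were lower at -0.54 ± 0.08 (SE) and -0.65 ± 0.22 (SE) in the authors' deposited table. SLC24A1 had 3.31 mean log2 CPM, and SLC24A5 a low 0.28 (adjusted p = 0.0309 by edgeR's test). The 14 that did not pass lay between -0.26 for SLC9A4 and 0.38 for SLC4A8 in the authors' deposited table. The bicarbonate carriers SLC4A2, SLC4A7 and SLC4A8 did not pass the threshold, with 0.09, -0.01 and 0.38 in the authors' deposited table.

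Among carriers of lipids, choline, urea and organic ions, 2 of 19 were higher, 8 lower and 9 neither, with a median of -0.22 in the authors' deposited table. That is 10.5% higher and 42.1% lower, beside 24.9% and 25.9% of all genes, not compared by a test. The fatty acid transport proteins of family SLC27 all passed the threshold but in opposite directions. SLC27A3 and SLC27A4 were higher, at 0.73 ± 0.12 (SE; adjusted p = 0.000706) and 0.67 ± 0.08 (SE; adjusted p = 0.000105) in the authors' deposited table. SLC27A1, SLC27A2 and SLC27A5 were lower, at -0.62, -0.24 and -0.22 in the authors' deposited table, SLC27A5 near the threshold (adjusted p = 0.0492). Levels were low for SLC27A3 and SLC27A1, at 1.63 and 1.97 mean log2 CPM in the authors' deposited table. SLC22A18, an imprinted gene on chromosome 11 of the organic cation family, was 2.09-fold lower, at -1.07 ± 0.15 (SE) and a low 1.14 mean log2 CPM in the authors' deposited table (adjusted p = 0.000256). Of the same family, the carnitine carriers SLC22A5 and SLC22A4 had -0.25 (adjusted p = 0.042) and -0.29 (adjusted p = 0.0589) in the authors' deposited table. SLC14A1, the urea carrier of red cells that bears the Kidd blood group, was 1.31-fold lower, at -0.38 ± 0.07 (SE) in the authors' deposited table (adjusted p = 0.000982). The choline carrier SLC44A1 had -0.38 (adjusted p = 0.000846), and SLC44A2 of the same family had -0.09 (adjusted p = 0.227), in the authors' deposited table. SLC10A4, of the bile acid carrier family, was lower at -0.32, and the 9 that did not pass lay between -0.32 for SLC22A16 and 0.07 for SLC10A3, in the authors' deposited table.

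**Figure D4:**
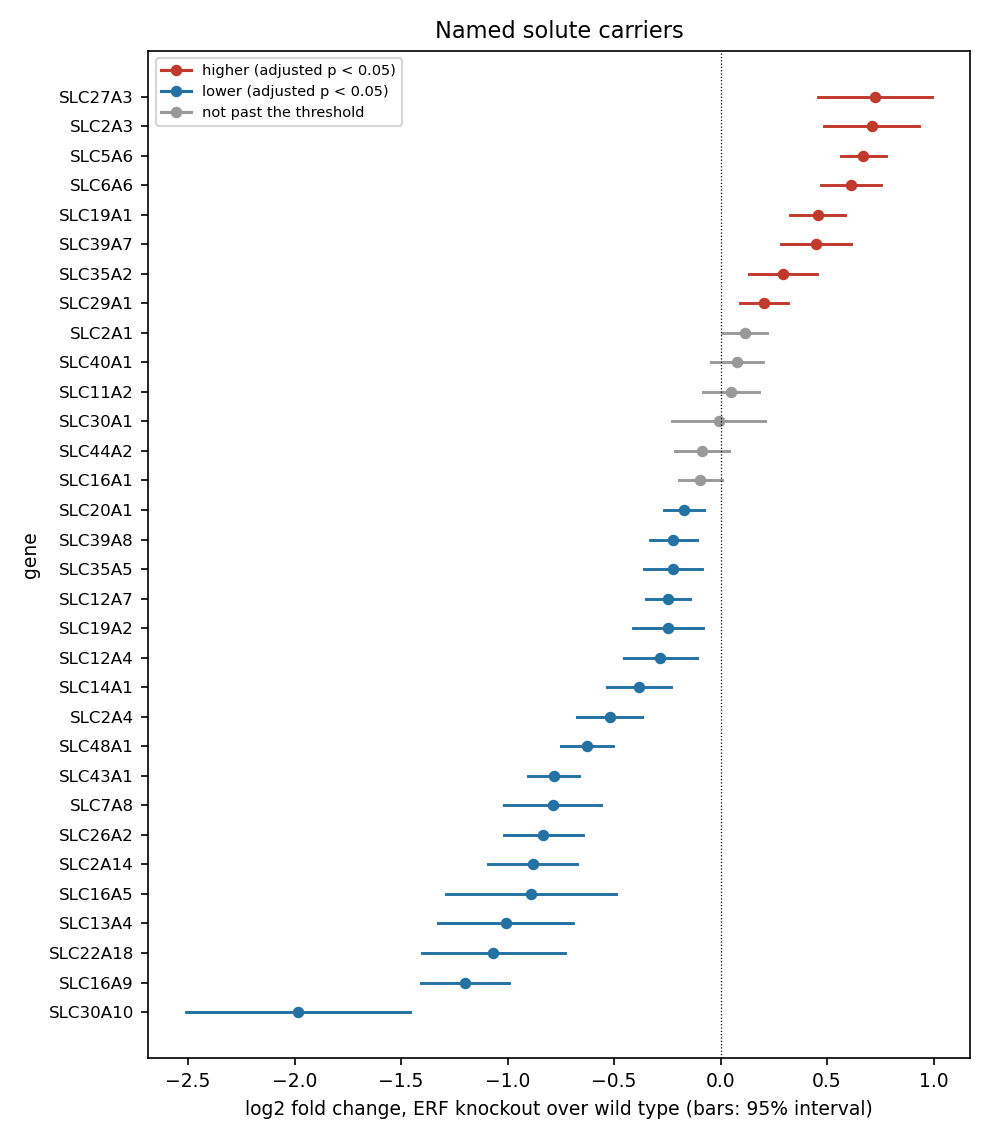
Log2 fold change (ERF knockout over wild type) of 32 of the carriers named by rule, with the 95% interval as a bar; red is higher, blue lower and grey not past an adjusted p of 0.05. Intervals ran widest for SLC30A10 and SLC16A5, which had low mean log2 CPM (-0.32 and 0.41), and narrowest for abundant carriers such as SLC20A1.

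Carriers listed for their known place in red cells were named whatever their value. Of those described here, SLC2A3, SLC19A1 and SLC29A1 were higher in the authors' deposited table. Those lower there were SLC43A1, SLC48A1, SLC2A4, SLC14A1, SLC12A4, SLC12A7, SLC39A8 and SLC20A1. The remaining 6, SLC2A1, SLC40A1, SLC11A2, SLC30A1, SLC44A2 and SLC16A1, did not pass the threshold. Among all genes 24.9% were higher and 25.9% lower, and the red cell list was not compared with them by a test.

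Carriers whose symbols fall outside the pattern were listed for comparison. Of 56 listed, 44 were measured, and 19 were higher, 9 lower and 16 neither, with a median of 0.12 in the authors' deposited table. The shares were 43.2% higher and 20.5% lower, beside 24.9% and 25.9% of all genes, not compared by a test. SLCO2B1, an organic anion carrier that also takes up steroid sulfates, was 7.64-fold higher, at 2.93 ± 0.36 (SE) and a low 0.87 mean log2 CPM in the authors' deposited table (adjusted p = 0.000105). Among nucleotide sugar carriers with other letters, SLC35B2, for the sulfate donor PAPS, had 0.55 and SLC35B1, which brings ATP into the endoplasmic reticulum, 0.51 in the authors' deposited table. Lower ones included MFSD2B, the sphingosine 1-phosphate exporter of red cells, at -0.63 ± 0.05 (SE; adjusted p = 4.86e-06) and the heme exporter FLVCR1 at -0.20 (adjusted p = 0.0277) in the authors' deposited table. The difference in direction between this list and the 126 carriers was not tested.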

How the data were processed

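RNA-seq of 3 ERF knockout and 2 wild-type samples was available only as a comparison table. Per the labels, RNA was extracted with Trizol and libraries made with an Illumina TruSeq kit. The build hg19/GRCh37 and the tools edgeR 2.6.12, HTSeq, TopHat2 2.0.4, Cuffdiff and SAMtools are listed, without their roles, per the submitters' processing notes. For filter, normalization and strand setting the sources used here give nothing, so overlapping and antisense genes cannot be told apart. Per the file headers, the authors deposited for each gene its log2 fold change and mean log2 CPM, the F score, and p-values before and after adjustment. With 0 columns for single samples, depth is unknown. Of 11979 rows, 3 name no gene and hold 21.5% of the CPM; they were left out of the counts, while the deposited adjustment includes them. Recomputed Benjamini-Hochberg values differed from the deposited ones by at most 0.676%.

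Deposited fold changes were multiplied by -1, which makes HBG2 higher in the knockout. The standard error is the absolute log2 fold change over the square root of F. The 95% intervals use t quantiles at 10.3 degrees of freedom, the median over genes of the value linking F to p. Simulated data built with these same formulas returned the set values. That checked the calculation, not how closely these approximations match the errors of edgeR's test. Levels per kb use GENCODE 29 exon lengths, found for 126 of 126 carriers. Shared stretches of 50 bases were counted over GENCODE 29 transcripts. Neighbouring genes come from RefSeq's GRCh38.p14 table. Python 3.11.15, numpy 2.4.6, scipy 1.17.1, pandas 2.3.3 and matplotlib 3.10.9 were used.

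Carriers named are those past an adjusted p of 0.05 with an absolute log2 fold change of at least 0.8, the largest increase and decrease that passed in each substrate group, and 18 carriers known in red cells (34 genes); others are named to complete a family or substrate and were chosen after their values were seen. Some results under this rule are not reported here. Substrate groups follow the family, with SLC5A6 moved to vitamins. The members and lists were chosen with earlier results of these data known, and the motifs after the values were seen. Alternatives were a stricter p, a minimum level, a minimum change, centring, and adjustment without the 3 rows.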

Additional observations from a re-analysis of the deposited data

How the results depend on the processing

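The number of carriers higher in the knockout was 19 to 25 and the number lower 30 to 44 with an adjusted p below 0.01, with a minimum of 1 mean log2 CPM, without the rows that name no gene, and after centring on genes of at least 5 mean log2 CPM, beside 25 and 41 as reported. With a minimum absolute log2 fold change of 0.5 the counts were 6 higher and 19 lower, since that setting drops small changes by construction. Centring subtracted 0.03 log2 units. The same 25 carriers remained higher and the same 41 lower, and 0 changed direction. SLC16A1, SLC17A9 and SLC22A4 were added to the lower ones, at -0.13, -0.15 and -0.32. Over all 11976 genes, centring gave 2566 higher and 3532 lower, beside 2987 and 3105 without it. The counts over all genes thus shifted towards lower as well. For the other settings, counts over all genes are not given here. The median of the carriers stayed negative throughout, from -0.10 to -0.05. Of the 34 named carriers, SLC16A1 was the only call that centring changed, and adjustment without the 3 rows changed 0. No paired analysis was possible because the deposited table has no values per sample; for the same reason no sample could be left out in turn. Carriers below 2 mean log2 CPM had a median standard error of 0.16 log2 units, against 0.06 at 5 or more, and 12 of the 21 passed the threshold. For the other 9, missing the threshold does not show that the level did not differ.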

Other observations

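By RefSeq gene order, 3 pairs of the carriers are direct neighbours among coding genes. SLC2A14 and SLC2A3 on chromosome 12 had log2 fold changes of -0.88 and 0.71 in the authors' deposited table, in opposite directions. SLC22A4 and SLC22A5 on chromosome 5 had -0.29 and -0.25, and SLC9A4 and SLC9A2 on chromosome 2 had -0.26 and -0.43, in the authors' deposited table, of which SLC22A5 and SLC9A2 passed the threshold.

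The row of SLC16A1-AS1, an antisense RNA of the lactate carrier gene, stood at a log2 fold change of 0.00 ± 0.15 (SE), with 0.96 mean log2 CPM in the authors' deposited table (adjusted p = 0.981). Reads of the pair cannot be told apart where they overlap unless counting used the strand.

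Transcript sharing was low for most carriers: the median share of 50-base stretches that also occur in another annotated gene was 0.104%, and 8 of the 126 exceeded 10%. The highest shares were those of SLC39A1 (55.2%), SLC35A1 (47.4%), SLC9A3 (39.2%), SLC43A3 (24.3%) and SLC33A1 (21.6%). Of these, SLC39A1 passed the threshold. SLC2A14, SLC2A3 and SLC29A3 followed, at 16.5%, 16% and 12%.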
